A study of Mus musculus with 6 samples.

Results

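Translation initiation and elongation factors are the proteins that bring ribosomes onto mRNAs and drive them along the coding sequence. The editing of their own mRNAs by 2 ribosome-tethered deaminases was compared in primary mouse cortical neurons. The genes were taken by name, as all protein-coding mouse genes whose symbol begins with Eif and a digit from 1 to 6 or with Eef and 1 or 2. The rule uses symbols and biotypes, not measured values. There were 68 such genes among 31053 listed, of which 21974 are protein coding, and 1 further gene with a matching symbol, Eif2c5, is not annotated as protein coding and was left out. The 68 genes comprise 55 Eif genes and 13 Eef genes. An edit was recorded in all 6 libraries for 54 of them, and only these 54 entered the comparison of the variants, which ran over 8046 genes. Another 10 were edited in 1 to 5 libraries (Eif2ak2, Eif2b2, Eif2b3, Eif2b4, Eif2b5, Eif3g, Eif4e3, Eif4ebp1, Eif4ebp3 and Eif6) and 4 (Eef1akmt3, Eef1akmt4, Eef2kmt and Eif4e1b) were listed at 0 in every library.

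Ribo-STAMP fuses rat APOBEC1, a cytidine deaminase that turns C into U in RNA, to a ribosomal protein, so that mRNAs on tagged ribosomes collect C-to-U edits. Edits per read (EPR) is the number of such edits in a gene divided by the reads counted for it, and the technique uses it as a readout of ribosome association. A value of 0 can mean that no edit was found or that the gene had no reads, and the reads behind each value are unknown here. The 2 variants were RPL10A-STAMP, in which RPL10A is joined at the C terminus of the deaminase, and RPL22-STAMP, in which RPL22 precedes it. Each was measured in 3 libraries. All cultures came from cortices of wild-type C57BL/6J mice at embryonic day 18, received floxuridine at day in vitro 3, were infected with AAV at day 6, received 1 µg/ml doxycycline for 48 h and were collected at day 14. The doxycycline switch was driven from the human synapsin promoter, which is active mainly in neurons. Uninfected or uninduced cultures were not analysed here, so edits made without the deaminase could not be subtracted. The study's text calls the replicates biological in one place and technical in another, so p values measure the spread between these libraries.

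Initiation in eukaryotes is built by steps with separate factors. The eIF2 trimer carries initiator tRNA to the small ribosomal subunit and is recharged by eIF2B, and kinases of its alpha subunit throttle this step under stress. eIF1 and eIF1A keep the subunit scanning, eIF3 is its scaffold, and the cap-binding eIF4E, the scaffold eIF4G and the helicase eIF4A recruit the mRNA, with eIF4B and eIF4H assisting the helicase. eIF5 and eIF5B complete start codon recognition and subunit joining, eIF5A helps ribosomes past difficult peptide bonds, eEF1 delivers aminoacyl-tRNA and eEF2 moves the ribosome by a codon. Neurons depend on several of these for local protein synthesis at synapses. Some of the mRNAs, those of 10 of the 68 genes by the list used here, begin with a terminal oligopyrimidine (TOP) tract. This tract couples their translation to growth signalling.

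The sequences below show where the deaminase could act in the members on which the results turn. They are coding-strand stretches of spliced GENCODE transcripts on the GRCm38 (mm10) genome, in lower case, with a capital C wherever a C has A or T on both sides, the AU-rich surroundings that APOBEC1 favours. The first set is the stretch around the DEAD box, the helicase motif, of the eIF4A genes. It is shown because the EPR ratios between these close relatives did not overlap between the variants, in pairs chosen after their values were seen. A test of these ratios, given below, could not decide whether they differed. Each stretch spans an exon junction, so its coordinates include an intron.
Eif4a1 (chr11:69668674-69669087, minus strand, exons 5 to 6): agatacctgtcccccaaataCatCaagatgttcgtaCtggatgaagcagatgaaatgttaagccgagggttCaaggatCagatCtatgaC
Eif4a2 (chr16:23110144-23110313, plus strand, exons 5 to 6): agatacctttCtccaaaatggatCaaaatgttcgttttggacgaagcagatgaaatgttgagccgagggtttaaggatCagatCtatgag
Eif4a3 (chr11:119294011-119294391, minus strand, exons 6 to 7): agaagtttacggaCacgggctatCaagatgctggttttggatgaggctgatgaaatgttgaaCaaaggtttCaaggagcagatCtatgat

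Over these 90 bases Eif4a1 and Eif4a2 were 86.7% identical, Eif4a1 and Eif4a3 67.8%, and Eif4a2 and Eif4a3 68.9%. Over the aligned coding sequences the same pairs were 78.1%, 69.5% and 68.4% identical. The stretches held 7 such cytidines in Eif4a1, 4 in Eif4a2 and 5 in Eif4a3. The next pair is the stretch around the lysine that is converted to hypusine in eIF5A, shown because Eif5a passed the test and its close relative Eif5a2 did not.
Eif5a (chr11:69917983-69919216, minus strand, exons 3 to 4): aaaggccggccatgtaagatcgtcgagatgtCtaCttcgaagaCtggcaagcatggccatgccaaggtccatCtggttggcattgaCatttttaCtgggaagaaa
Eif5a2 (chr3:28782151-28782766, plus strand, exons 2 to 3): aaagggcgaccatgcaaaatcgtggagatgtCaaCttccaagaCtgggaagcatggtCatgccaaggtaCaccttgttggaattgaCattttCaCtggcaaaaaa

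These 105 bases were 84.8% identical and held 6 favoured cytidines in Eif5a and 8 in Eif5a2. The last pair is the first 90 coding bases of the 2 genes with the largest log2 fold changes between the variants among the 54. This ranking holds on the scale of the test, with 0.01 added to the EPR. Without the added value Eif4a3 (-2.37) lay further from 0 than Eif4h (-1.99).
Eif2a (chr3:58526059-58531148, plus strand, exons 1 to 2): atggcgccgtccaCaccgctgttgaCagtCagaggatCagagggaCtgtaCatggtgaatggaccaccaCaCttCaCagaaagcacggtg
Eif4h (chr5:134627745-134639299, minus strand, exons 1 to 2): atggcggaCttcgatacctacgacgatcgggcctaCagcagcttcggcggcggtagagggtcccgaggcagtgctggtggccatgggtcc

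Of 24 cytidines in the Eif2a stretch, 10 had A or T on both sides, against 2 of 25 in the Eif4h stretch. Over the whole transcripts this contrast was not present, with 65.2 such cytidines per kb in Eif2a and 64.2 in Eif4h. The deposited values are per gene, so which cytidines were edited was not analysed here.

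Most of the factors had a lower EPR than the median gene. The median EPR of the 54 members was 0.00791, 0.00905 and 0.0111 in the RPL10A-STAMP libraries and 0.00553, 0.00755 and 0.00704 in the RPL22-STAMP libraries. The median over all 8046 genes was 0.0120, 0.0153 and 0.0161 with RPL10A-STAMP, against 0.00907, 0.0129 and 0.0112 with RPL22-STAMP. The members' median was thus 0.585 to 0.687 of the median over all genes in every library, and 37 to 42 of the 54 members lay below it. The unscaled level also differed between libraries over all genes, so each library was divided by its own median before the variants were compared. In these bulk libraries, fewer edits in every cell and editing in fewer cells cannot be told apart.

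Among the members the lowest mean EPR over the 6 libraries was that of 2 subunits of eIF3 and 1 of eEF1. Eif3d averaged 0.00252, Eif3b 0.00303 and Eef1b2, which encodes a nucleotide exchange factor of eEF1A, 0.00306. At the other end were Eif1ax at 0.0930, which encodes eIF1A from the X chromosome, Eif2s3x at 0.0891, which encodes the gamma subunit of eIF2, and Eif3j2 at 0.921. Eif3j2, a gene on chromosome 18 that encodes the loosely bound j subunit of eIF3, had an EPR of 0.615, 1.17 and 1.33 with RPL10A-STAMP, against 0.467, 1.56 and 0.389 with RPL22-STAMP. It was the only member above 1 in any library, meaning more edits than counted reads. Of its exonic 50-base windows 30.1% occur elsewhere in the genome, as do 19.7% of those of its paralog Eif3j1, so reads and edits of the pair may be assigned to either gene or to other copies and their values are uncertain. The EPR of Eif1ax ranged from 0.0887 to 0.111 with RPL10A-STAMP and from 0.0775 to 0.0888 with RPL22-STAMP before scaling, so the 2 ranges touched. On the log scale used for the test neither gene passed (adjusted p = 0.587 for Eif1ax and 0.815 for Eif3j2, limma). The order of the members was shared by the libraries. The Spearman correlation over the 54 members was 0.684 to 0.846 between RPL10A-STAMP libraries, 0.614 to 0.711 between RPL22-STAMP libraries and 0.570 to 0.683 between the variants, across genes that share libraries and are not independent replicates.

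**Figure D1:**
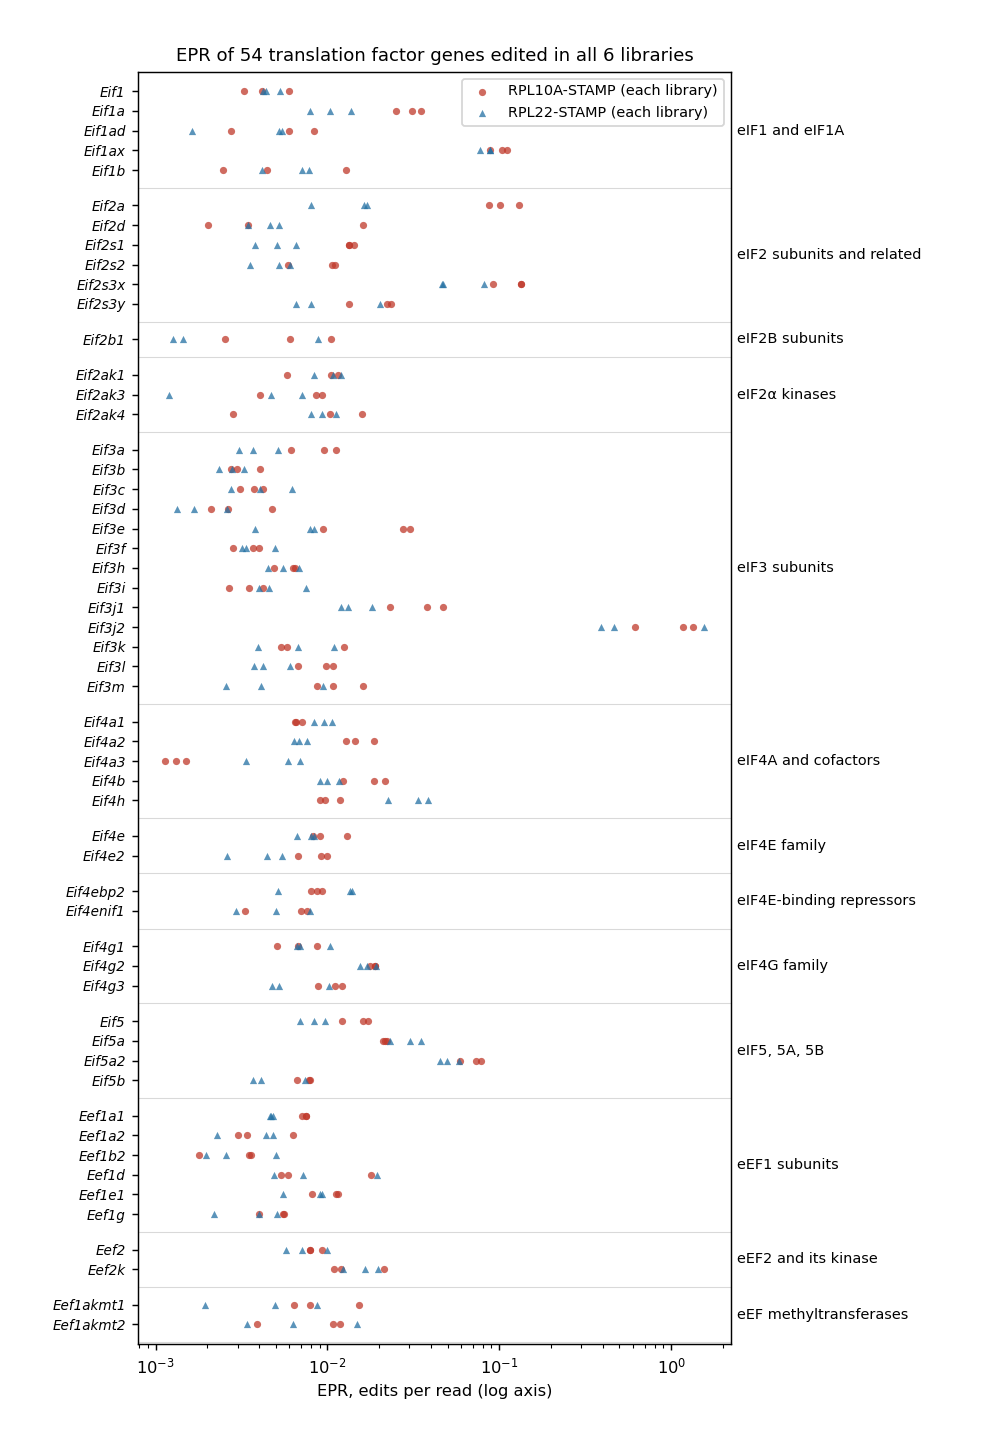
EPR (edits per read, log axis) of the 54 genes edited in all 6 libraries, grouped by role; red circles are the 3 RPL10A-STAMP libraries and blue triangles the 3 RPL22-STAMP libraries, without scaling. Most members lie near 0.01, Eif1ax, Eif2s3x and Eif3j2 lie far to the right, and Eif2a shows the widest gap between the variants.

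The variants were compared as the log2 fold change of scaled EPR plus 0.01, RPL10A-STAMP over RPL22-STAMP, with limma and Benjamini-Hochberg adjustment over all 8046 genes. Because of the added 0.01, these fold changes understate the difference of genes with a low EPR. Of the 54 members 6 passed an adjusted p of 0.05, or 11.1%, against 14.3% of all genes tested. Higher with RPL10A-STAMP were 3 members (8.51% of all genes), Eif2a, Eif2s1 and Eif1a, and higher with RPL22-STAMP were 3 (5.77% of all genes), Eif4h, Eif5a and Eif4a3. The share of members called was thus near the background in total. The median log2 fold change of the members was 0.01, beside -0.01 over all genes. The scaled values of the 2 variants did not overlap for 15 members, or 27.8%, beside 37.1% of all genes. By symbol, all 6 called genes were among the 44 tested Eif genes and none among the 10 tested Eef genes, and the difference between these shares was not tested.

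**Figure D2:**
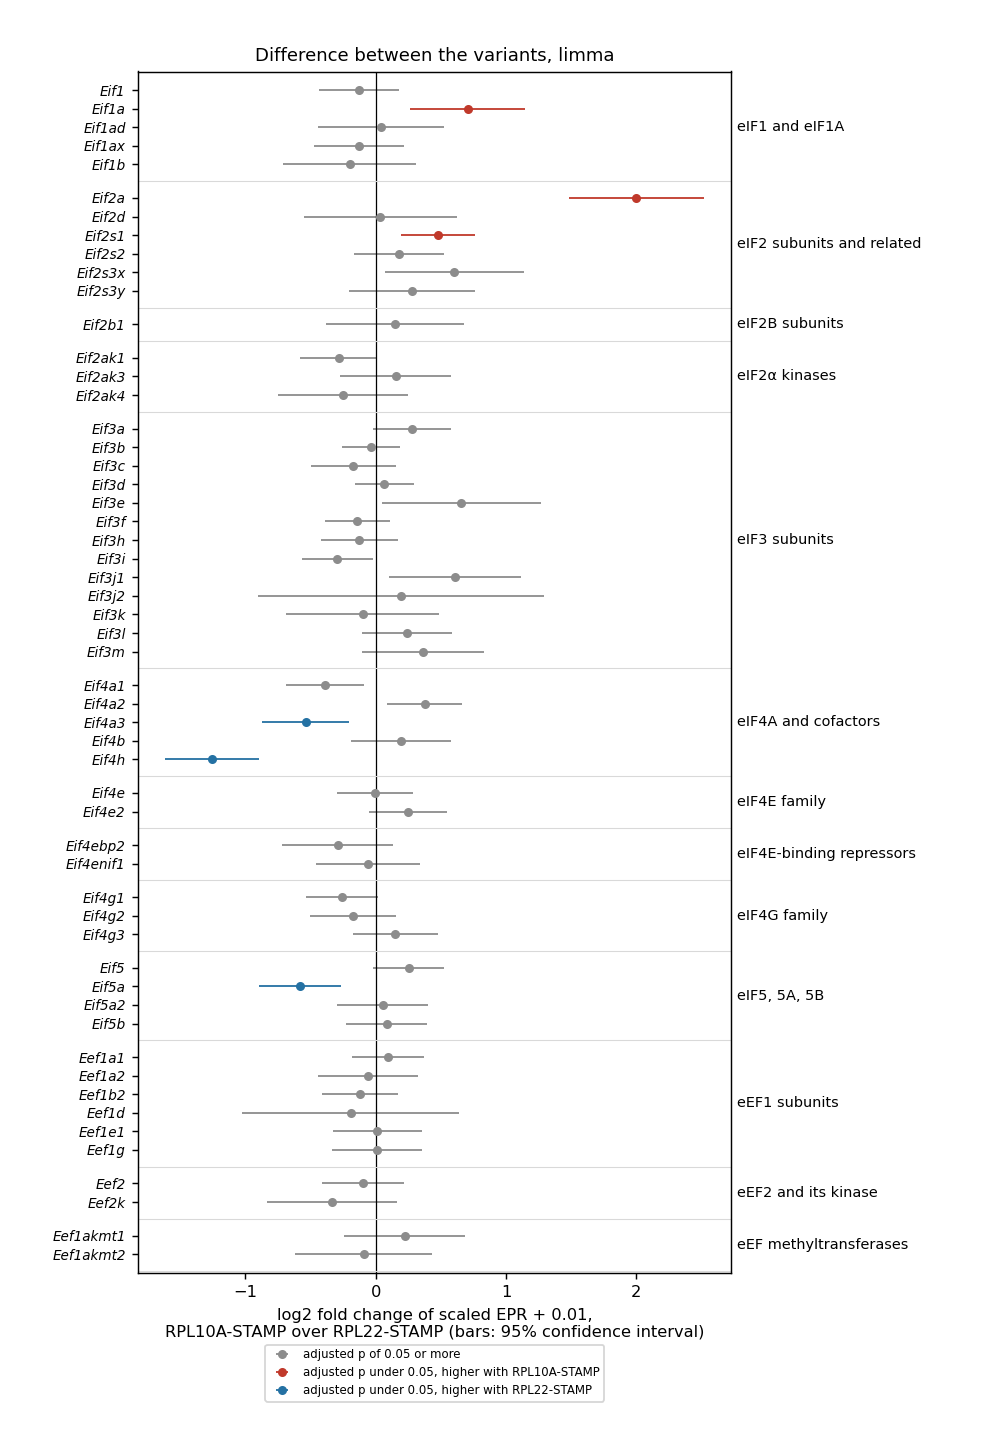
Log2 fold change of scaled EPR plus 0.01, RPL10A-STAMP over RPL22-STAMP, for the 54 members by role; points are limma estimates and bars 95% confidence intervals. The 3 red genes (Eif2a, Eif2s1, Eif1a) and the 3 blue genes (Eif4h, Eif5a, Eif4a3) passed the adjusted p of 0.05 and the 48 grey genes did not.

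The largest difference among the members was that of Eif2a (ENSMUSG00000027810, chr3:58525821-58557501), which encodes eIF2A, a factor that can deliver initiator tRNA independently of the eIF2 trimer. Its EPR was 0.0869, 0.101 and 0.130 with RPL10A-STAMP, against 0.0169, 0.0162 and 0.00799 with RPL22-STAMP. All RPL10A-STAMP libraries lay far above all RPL22-STAMP libraries. The mean scaled EPR was 5.72 times higher with RPL10A-STAMP, and the log2 fold change was 2.0 ± 0.22 (SE, n = 3 per variant; limma adjusted p = 0.0045). The call held in all 20 alternative limma settings, with an adjusted p of 0.0035 to 0.0444. Exons of Serp1 on the opposite strand cover 1.2% of its exonic bases, and whether reads were counted by strand is not given in the sources used here.

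Within the eIF2 trimer itself Eif2s1 was called in the same direction. It (chr12:78861819-78887010) encodes the alpha subunit, whose phosphorylation is the switch of the integrated stress response. Its EPR was 0.0133, 0.0134 and 0.0143 with RPL10A-STAMP, against 0.00380, 0.00656 and 0.00509 with RPL22-STAMP, without overlap. The log2 fold change was 0.48 ± 0.12 (SE, n = 3 per variant; limma adjusted p = 0.0419). For Eif2s3x the EPR was 0.0922, 0.134 and 0.134 against 0.0462, 0.0472 and 0.0814. The RPL10A-STAMP libraries were again all higher, but the log2 fold change of 0.60 ± 0.23 (SE, n = 3 per variant) did not pass (limma adjusted p = 0.122). Eif2s3y, its Y-linked counterpart, was edited at 0.0134, 0.0220 and 0.0236 against 0.00658, 0.0201 and 0.00804, and Eif2s2, for the beta subunit, at 0.00589, 0.0106 and 0.0111 against 0.00607, 0.00521 and 0.00354. In both genes the variants overlapped. All 6 genes of the group, which adds Eif2a and Eif2d, had a log2 fold change above 0, as had 3921 of the 8046 genes tested, with a median of 0.38, and 2 were called, beside 14.3% of all genes. Their transcripts had a median GC content of 42.9%, beside 48.9% over all genes.

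None of the tested genes that regulate eIF2 was called, beside 14.3% of all genes. Of the 5 eIF2B subunits, which reload eIF2 with GTP, 1 was edited in all libraries (Eif2b1), and it was not called. Eif2b5, the catalytic subunit, was at 0.00522, 0.00304 and 0.00663 with RPL10A-STAMP, against 0.00765, 0.00392 and 0 with RPL22-STAMP. Of the 4 kinases of the alpha subunit 3 were tested and none was called. Eif2ak1 (the heme-regulated kinase) had 0.00583, 0.0105 and 0.0114 against 0.00838, 0.0120 and 0.0107, with a log2 fold change of -0.29 ± 0.13 (SE, n = 3 per variant; limma adjusted p = 0.175). Its variants overlapped before scaling, and after scaling all RPL22-STAMP libraries were higher. Eif2ak3 (PERK, the kinase of the endoplasmic reticulum) ranged from 0.00119 to 0.00935 over the 6 libraries and Eif2ak4 (GCN2, the amino acid sensor) from 0.00284 to 0.0159, with overlapping variants. Eif2ak2 (PKR, the kinase for double-stranded RNA) was at 0 in 1 RPL22-STAMP library and between 0.00383 and 0.0117 in the others.

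Of the 5 tested factors that hold the scanning subunit open, 1 was called (Eif1a), beside 14.3% of all genes. Eif1a lies on chromosome 18 and encodes eIF1A, as does X-linked Eif1ax. Its EPR was 0.0250, 0.0311 and 0.0349 with RPL10A-STAMP, against 0.0138, 0.0104 and 0.00791 with RPL22-STAMP, and the groups did not overlap. The log2 fold change was 0.70 ± 0.19 (SE, n = 3 per variant; limma adjusted p = 0.0481). Eif1ax did not pass the test. The ratio of Eif1ax to Eif1a was 3.55, 3.32 and 3.19 in the RPL10A-STAMP libraries and 5.63, 8.54 and 11.2 in the RPL22-STAMP libraries. Eif1, which guards start codon selection, ranged from 0.00329 to 0.00600 and overlapped.

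The eIF4A helicase and its cofactors held the strongest difference in the direction of RPL22-STAMP. Eif4h (ENSMUSG00000040731, chr5:134619721-134639490) encodes a cofactor of the helicase and lies in the interval deleted in Williams syndrome in people. Its EPR was 0.00972, 0.00905 and 0.0118 with RPL10A-STAMP, against 0.0225, 0.0335 and 0.0384 with RPL22-STAMP. Every RPL22-STAMP library was well above every RPL10A-STAMP library. Over all genes the unscaled medians overlapped, at 0.0120, 0.0153 and 0.0161 with RPL10A-STAMP, against 0.00907, 0.0129 and 0.0112 with RPL22-STAMP. The mean scaled EPR of Eif4h was 3.97 times higher with RPL22-STAMP, and the log2 fold change was -1.26 ± 0.15 (SE, n = 3 per variant; limma adjusted p = 0.0047). This call too held in all 20 alternative limma settings, with an adjusted p of 0.00388 to 0.0479. Eif4b, which encodes the related cofactor eIF4B, was at 0.0123, 0.0186 and 0.0216 with RPL10A-STAMP, against 0.0116, 0.00910 and 0.00996 with RPL22-STAMP. The RPL10A-STAMP libraries were higher before scaling and the variants overlapped after it, with no call.

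The 3 eIF4A genes differed in the direction of their values, and 1 of them was called, beside 14.3% of all genes. Eif4a3 encodes the helicase of the exon junction complex, the mark left on spliced mRNAs. Its EPR was 0.00114, 0.00151 and 0.00131 with RPL10A-STAMP, the lowest mean of the 54 members with this variant, and 0.00696, 0.00591 and 0.00337 with RPL22-STAMP. The mean scaled EPR was 5.56 times higher with RPL22-STAMP, and the log2 fold change, damped by the added 0.01, was -0.54 ± 0.14 (SE, n = 3 per variant; limma adjusted p = 0.0476). Without the added value it was -2.37 (adjusted p = 0.0264). Eif4a1, the helicase of growing cells, was at 0.00714, 0.00645 and 0.00660 against 0.00835, 0.00953 and 0.0107. The RPL22-STAMP libraries were all higher, with a log2 fold change of -0.39 ± 0.13 (SE, n = 3 per variant; limma adjusted p = 0.0888). Eif4a2, abundant in brain, went the other way, at 0.0128, 0.0145 and 0.0187 against 0.00635, 0.00758 and 0.00682. All RPL10A-STAMP libraries were higher, with a log2 fold change of 0.38 ± 0.12 (SE, n = 3 per variant; limma adjusted p = 0.0849). Neither of the last 2 passed the threshold. With the trend of transcript length removed Eif4a2 did, at 0.53 (adjusted p = 0.0338), and over the 20 alternative limma settings its adjusted p ranged up to 0.569.

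A ratio of 2 genes within a library does not depend on that library's overall level. Eif4a2 over Eif4a1 was 1.79, 2.25 and 2.84 in the RPL10A-STAMP libraries and 0.761, 0.796 and 0.640 in the RPL22-STAMP libraries. The order of the 2 genes was therefore reversed between the variants in every library. Eif4a2 over Eif4a3 was 11.2, 9.65 and 14.3 against 0.912, 1.28 and 2.02, and Eif4a1 over Eif4a3 was 6.28, 4.28 and 5.05 against 1.20, 1.61 and 3.16. In total 11 pairs of close relatives were examined. They were chosen after their values were seen. An exact permutation test gave p = 0.1 for each pair whose ratios did not overlap, and higher values for the other pairs. This is the smallest p that the test can give with 3 libraries per variant. Adjusted over the 11 pairs it was 0.157, so the test cannot decide whether any of the ratios differed. The ratios did not overlap between the variants in 7 pairs, beside 32.9% of all possible pairs of the 8046 genes. Because the pairs were picked and several share a gene, the count is a description and cannot show an excess. The overlapping pairs were Eef1a1 with Eef1a2, Eif2s3x with Eif2s3y, Eif4g2 with Eif4g1 and Eif1 with Eif1b.

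**Figure D3:**
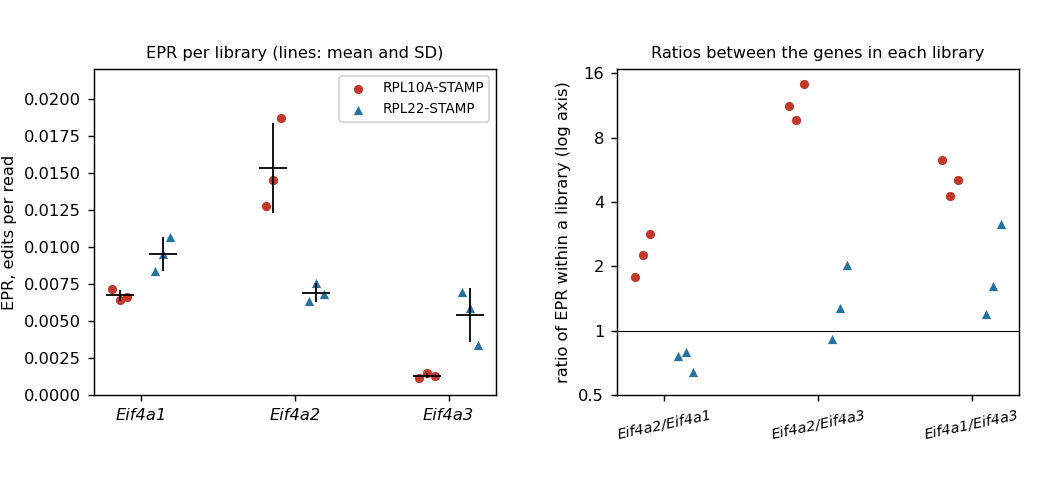
Left, EPR of the 3 eIF4A genes in each library, with black lines for the mean and SD (n = 3 per variant); right, ratios of EPR between the genes within each library (log axis, line at 1). Eif4a2 lay above Eif4a1 in the 3 RPL10A-STAMP libraries (ratios 1.79 to 2.84) and below it in the 3 RPL22-STAMP libraries (0.640 to 0.796).

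The cap-binding machinery showed no call, beside 14.3% of all genes. Eif4e, the cap-binding protein itself, was at 0.00827, 0.00904 and 0.0129 with RPL10A-STAMP, against 0.00666, 0.00801 and 0.00835 with RPL22-STAMP, and after scaling the log2 fold change was -0.01 (95% interval -0.29 to 0.28; limma adjusted p = 0.983). Its relative Eif4e2 (4EHP, a cap-binding repressor) was at 0.00675, 0.00992 and 0.00922 against 0.00444, 0.00541 and 0.00259 (limma adjusted p = 0.232). The variants of Eif4e2 did not overlap, also after scaling. Among the eIF4E-binding repressors, Eif4ebp2, the main form in brain, had 0.00933, 0.00871 and 0.00803 against 0.00514, 0.0140 and 0.0136. Its variants overlapped. Eif4enif1 (4E-T, which brings eIF4E to P-bodies) ranged from 0.00292 to 0.00787 and overlapped as well. Eif4ebp1 was edited in only 1 library of each variant, at 0.0198 and 0.0276, and Eif4ebp3 (picked out after its values were seen) in 1 RPL10A-STAMP library, at 0.667. The scaffold Eif4g1 was at 0.00509, 0.00677 and 0.00871 against 0.00665, 0.0103 and 0.00696, with a log2 fold change of -0.26 ± 0.12 (SE, n = 3 per variant; limma adjusted p = 0.187). Its variants overlapped before scaling, and after scaling all RPL22-STAMP libraries were higher. Eif4g2 (DAP5, which lacks the eIF4E site) was the most even member of this family, at 0.0154 to 0.0191 over all 6 libraries. Eif4g3 was at 0.00882, 0.0122 and 0.0111 against 0.00522, 0.0102 and 0.00478, with overlap.

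The eIF3 complex had no call at the reported setting among its 13 tested subunits, beside 14.3% of all genes. Of the 13, 7 had a log2 fold change above 0 and 6 below. Eif3a, the largest core subunit, was at 0.00610, 0.00954 and 0.0112 with RPL10A-STAMP, against 0.00369, 0.00305 and 0.00515 with RPL22-STAMP, without overlap (limma adjusted p = 0.191). Eif3c, another core subunit, ranged from 0.00275 to 0.00619 and overlapped. Eif3e was at 0.00948, 0.0302 and 0.0275 against 0.00796, 0.00380 and 0.00831. The first RPL10A-STAMP library sat close to the RPL22-STAMP libraries, and the log2 fold change of 0.66 ± 0.26 (SE, n = 3 per variant) did not pass (limma adjusted p = 0.136). Eif3j1 (picked out after its values were seen) had 0.0232, 0.0378 and 0.0472 against 0.0181, 0.0131 and 0.0120, with a log2 fold change of 0.61 ± 0.21 (SE, n = 3 per variant; limma adjusted p = 0.104). It was called without scaling (0.89; adjusted p = 0.0430) and without RPL22-STAMP replicate 1 (0.83; adjusted p = 0.0413). Eif3i (also picked out after its values were seen) was called when the trend of base context was removed, at -0.51 (adjusted p = 0.0293), beside -0.30 (adjusted p = 0.134) otherwise.

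Of the 4 tested factors numbered 5, 1 was called (Eif5a), beside 14.3% of all genes. Eif5a encodes the main form of eIF5A (chr11:69916714-69921958). Its EPR was even with RPL10A-STAMP, at 0.0211, 0.0221 and 0.0216, and higher with RPL22-STAMP, at 0.0231, 0.0350 and 0.0303. The log2 fold change was -0.58 ± 0.13 (SE, n = 3 per variant; limma adjusted p = 0.0307). Eif5a2, the second form, was at 0.0593, 0.0728 and 0.0780 against 0.0497, 0.0585 and 0.0453, and was not called (limma adjusted p = 0.844). Eif5a2 exceeded Eif5a in every library, by 2.81, 3.30 and 3.61 times with RPL10A-STAMP and by 2.15, 1.67 and 1.49 times with RPL22-STAMP. Eif5, the GTPase activator, was at 0.0122, 0.0160 and 0.0172 against 0.00689, 0.00961 and 0.00829 (limma adjusted p = 0.187), and Eif5b, the subunit-joining GTPase, ranged from 0.00369 to 0.00786 with overlap.

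Eif6 stood outside the test because of its zeros. It encodes a factor that keeps free large subunits from joining. It was listed at 0 in all 3 RPL10A-STAMP libraries and at 0.00481, 0.00543 and 0.00733 in the RPL22-STAMP libraries. It met a filter of an edit in at least 3 libraries only through the RPL22-STAMP libraries. Its limma adjusted p under that filter (0.0349) therefore cannot support a difference. With no filter the limma adjusted p was 0.0734. The same pattern of zeros was found in 30 of all listed genes and the opposite pattern in 79, none of them a member.

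None of the 10 tested Eef genes was called, beside 14.3% of all genes. Eef1a1, the main carrier of aminoacyl-tRNA, had closely repeated values, at 0.00747, 0.00710 and 0.00750 with RPL10A-STAMP, against 0.00480, 0.00469 and 0.00461 with RPL22-STAMP. The groups were apart before scaling and overlapped after it, with a log2 fold change of 0.09 ± 0.12 (SE, n = 3 per variant; 95% interval -0.18 to 0.37; limma adjusted p = 0.627). Of its exonic 50-base windows 6.88% occur elsewhere in the genome. Eef1a2, the form that replaces it in mature neurons and muscle, was at 0.00634, 0.00302 and 0.00340 against 0.00479, 0.00437 and 0.00227. Eef1a1 exceeded Eef1a2 by 1.00 to 2.35 times over the 6 libraries. Eef1g ranged from 0.00218 to 0.00561. Eef1d was at 0.0179 in the first RPL10A-STAMP library and 0.0195 in the third RPL22-STAMP library but from 0.00486 to 0.00717 in the other 4. Both genes, which encode subunits of the eEF1B exchange factor, overlapped between the variants. Eef2, the translocase, was at 0.00795, 0.00795 and 0.00924 against 0.00577, 0.00707 and 0.00988, with a log2 fold change of -0.10 (95% interval -0.41 to 0.22; limma adjusted p = 0.662). Eef2k, the kinase that inhibits it and is active at synapses, was at 0.0120, 0.0110 and 0.0214 against 0.0165, 0.0123 and 0.0197, with a log2 fold change of -0.34 ± 0.21 (SE, n = 3 per variant; limma adjusted p = 0.320).

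The 10 members listed as TOP mRNAs (Eef1a1, Eef1b2, Eef1d, Eef1g, Eef2, Eif3a, Eif3e, Eif3f, Eif3h and Eif4b) were all tested. None was called, beside 14.3% of all genes, and so few genes cannot show a difference from that share. Their median log2 fold change was -0.04, with 5 above and 5 below 0. Their median of the mean EPR was 0.00624, beside 0.00855 for the other 44 tested members. These medians are given without a test.

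The fold change of the members was related to the base composition of their transcripts, as was that of all genes. The Spearman correlation of the log2 fold change with transcript GC content was -0.530 over the 54 members, -0.50 without Eif2a and Eif4h and -0.467 over the 8039 tested genes with a GC content, across genes that share libraries. Of the 18 members with the lowest GC content (38.8 to 44.1%), 14 had a log2 fold change above 0, with a median of 0.22. Of the 18 in the middle (44.4 to 51.3%) there were 8, with a median of -0.09, and of the 18 with the highest GC content (51.3 to 60.6%) there were 6, with a median of -0.10. Within libraries, the correlation of the members' EPR with GC content was -0.436, -0.619 and -0.590 with RPL10A-STAMP, against -0.269, -0.323 and -0.249 with RPL22-STAMP. Over all genes it was -0.309, -0.328 and -0.348 in the first variant and near 0 in the second, at -0.0215, 0.0129 and 0.0423. The density of cytidines with A or T on both sides was less closely related to the fold change, at 0.173 over the members and 0.287 over all genes.

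**Figure D4:**
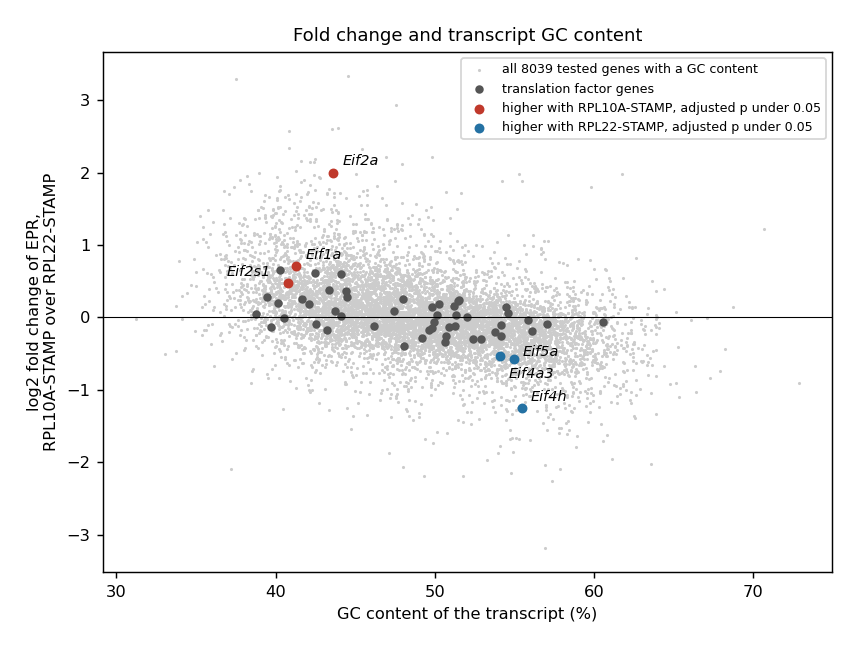
Log2 fold change of EPR (RPL10A-STAMP over RPL22-STAMP) against transcript GC content in percent; pale points are the 8039 tested genes with a GC content, dark points the members and coloured points the 6 members past the adjusted p of 0.05. The 3 members higher with RPL10A-STAMP lie under 45% GC and the 3 higher with RPL22-STAMP lie above 50%.

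After each library's trend with GC content was removed, 2 of the 6 calls were left, Eif2a and Eif4h, and 8.25% of all genes tested were called. The log2 fold change of Eif2a was then 1.77 (adjusted p = 0.0087) and that of Eif4h -0.99 (adjusted p = 0.0125). The other 4 went to 0.13 for Eif2s1 (adjusted p = 0.524), 0.38 for Eif1a (0.235), -0.33 for Eif5a (0.161) and -0.32 for Eif4a3 (0.241). These 4 were also the calls that depended on other settings. Out of 20 alternative limma settings Eif2s1 was called in 8, Eif5a in 7 and Eif1a and Eif4a3 in 6 each, and all 6 genes kept their direction in all 20. With 1 library left out at a time, Eif2s1 was not called in any of the 6 fits (adjusted p = 0.0809 to 0.113), Eif1a was called only without RPL22-STAMP replicate 1 (0.0167, otherwise 0.112 to 0.135), Eif5a only without RPL10A-STAMP replicate 1 (0.0493, otherwise 0.0575 to 0.114) and Eif4a3 only without RPL22-STAMP replicate 3 (0.0410, otherwise 0.0696 to 0.134).

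**Figure D5:**
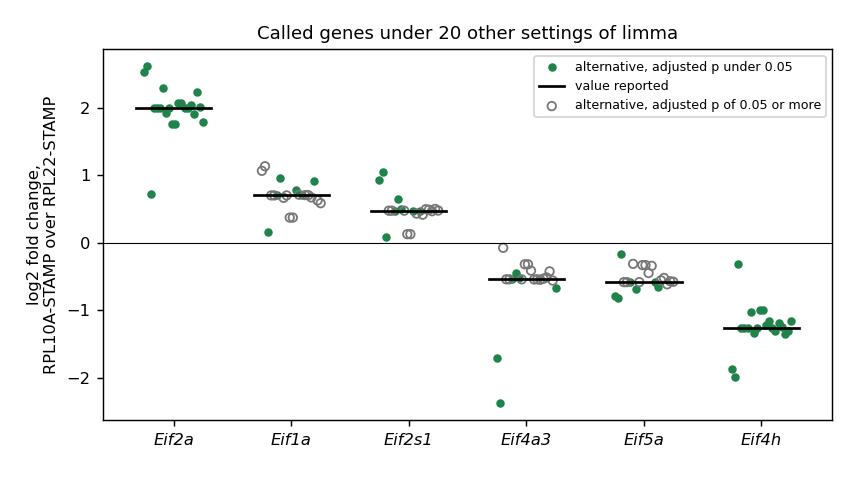
Log2 fold change (RPL10A-STAMP over RPL22-STAMP) of the 6 called members under the 20 alternative limma settings; filled green points have an adjusted p under 0.05, open points do not, and black bars mark the reported values. All points of Eif2a and Eif4h are filled, and no gene has a point on the other side of 0; the spread along the axis includes settings with another added value.

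For the other factors of the translation machinery, a list of 32 genes for release, recycling, mitochondrial translation and accessory steps, 21 were tested and 4 were called (19.0%, beside 14.3% of all genes), all higher with RPL10A-STAMP (8.51% of all genes). They were Abce1, which recycles ribosomes (log2 fold change 0.81; limma adjusted p = 0.0146), Gspt1, the release factor eRF3 (0.69; adjusted p = 0.0269), Gfm2, a mitochondrial recycling factor (1.13; adjusted p = 0.0275), and Mtif2, the mitochondrial initiation factor (0.89; adjusted p = 0.0483). With the GC trend removed only Gfm2 passed (adjusted p = 0.0354), and Abce1 (0.102), Gspt1 (0.0577) and Mtif2 (0.118) did not. Of the 20 alternative limma settings Abce1 was called in 16, Gfm2 in 12, Gspt1 in 10 and Mtif2 in 7. Abce1 had an EPR of 0.0192, 0.0335 and 0.0301 with RPL10A-STAMP, against 0.00643, 0.00816 and 0.00961 with RPL22-STAMP, without overlap. Mknk2, a kinase of eIF4E, had the zeros of Eif6, being at 0 with RPL10A-STAMP, against 0.0155, 0.0401 and 0.0141 with RPL22-STAMP. The list's median log2 fold change was 0.14, beside -0.01 over all genes.

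Edits were also looked for in marker genes of the cell types a cortical culture can hold. All 6 neuron markers were edited in every library, 5 to 6 of 6 astrocyte markers, 2 to 4 of 6 oligodendrocyte markers and 0 to 1 of 6 microglia markers, in both variants alike. Mag and Mog were at 0 in all libraries. Edits were thus recorded in astrocyte genes as well as in neuron genes, which does not show the cells in which they were made. The summed EPR of the neuron markers was 0.134 to 0.166 with RPL10A-STAMP and 0.106 to 0.130 with RPL22-STAMP, and that of the astrocyte markers 0.196 to 0.278 and 0.130 to 0.224. EPR is not an RNA level, and the part of these cells in the differences above was not tested. The number of genes with an edit was 9892 to 11195 per library.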

How the data were processed

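RNA was sequenced in 6 libraries, 3 per variant. Per the study's methods, the authors removed adapters (cutadapt), mapped the single-end reads to mm10 (STAR), found C-to-U edits (SAILOR) and counted reads per gene (featureCounts). They deposited 1 ratio per gene and library, edits divided by reads (EPR), without normalization between libraries. The gene annotation is not given in the sources used here, reads that fit several places could be kept, and the reads behind each gene are unknown (the methods state 1 sequencing depth for all samples), so no count model or counting interval was used.

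Gene names, coordinates, transcripts (the one with the longest coding sequence per gene) and base composition came from GENCODE mouse release 21 (GRCm38), in which 31011 of 31053 identifiers were found and 42 were not. For scaling, the median EPR of a library was taken over the 8046 genes with an edit in every library. All values of the library were divided by it and brought back to a common level, the 6 medians' geometric mean. log2(EPR + 0.01) was fitted with limma 3.58.1 (R 4.3.3) with a variance trend, and p values were adjusted by Benjamini-Hochberg over all 8046 genes, threshold 0.05. The comparison was simulated with changes made on the log2(EPR + 0.01) scale (8046 genes, 200 changed, 10 draws). Of genes changed by 1 on that scale 52.35% were recovered, and of those changed by 2, 90.3%. For a gene with a low EPR such a change stands for a larger fold change of EPR. These shares therefore do not apply to fold changes of EPR itself. They also hold for 200 changed genes, fewer than the 1149 called in the data. Recovery after Benjamini-Hochberg adjustment depends on that number, so the shares do not give the power of the real comparison. Trends with GC content were removed with natural splines of 4 degrees of freedom. Exact 50-base copies were searched with BLAST 2.17.0.

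The members and lists were chosen with earlier results of these data known. Named were all members past the threshold, those with the 3 highest and 3 lowest mean EPR, any above 1, a written list of core factors, and genes said to be picked out later. Eif1a was put in its group after its values had been seen. The labels do not say whether libraries with the same replicate number belong together, and the main fit did not pair them. Correlations of deviations between same-numbered libraries were 0.0437, 0.0464 and -0.00546, which does not settle the question.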

Additional observations from a re-analysis of the deposited data

How the results depend on the processing

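Instead of 6 members, 3 were called when an edit was required in at least 3 libraries only (Eif6 and 2 of the 6), 2 with no filter on low values, 2 with the GC trend removed, 3 with the trend of base context removed (Eif3i and 2 of the 6) and 0 by the methods' t-test, which called 15 members at an unadjusted p under 0.05 and none of all 8046 genes after adjustment (1996 unadjusted). With the replicate number as a block the count was 2, and 2 with the block and the GC trend removed. Whether the numbers pair the libraries is not stated. Over all genes 603 were called with the block, against 1149 without it. Leaving out 1 library gave 2 to 4 calls: 3, 2 and 2 without RPL10A-STAMP replicates 1, 2 and 3, and 4, 2 and 3 without RPL22-STAMP replicates 1, 2 and 3, all among the 6 but Eif3j1 without RPL22-STAMP replicate 1. The calls over all genes fell as well, from 1149 of 8046 to between 369 and 873 with 1 library left out. They were 754 of 10909 with an edit in at least 3 libraries and 569 of 12811 with no filter. With the trend removed they were 663 of 8039 for GC and 963 of 8039 for base context. Eif3j1 also joined without scaling and Eif4a2 with the length trend removed. Eif2a and Eif4h were called in each of these limma settings. Eif6 entered the setting of an edit in at least 3 libraries only through its RPL22-STAMP values, so its call there supports no difference.

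Without scaling, the median log2 fold change of the members was 0.16 (all genes 0.18) and the split of all calls moved from 685 of 1149 to 956 of 1085 higher with RPL10A-STAMP; the members' median EPR was then 0.00935 for the first variant and 0.00671 for the second, RPL22-STAMP. The t-test on unscaled EPR gave a median of 0.39. Eef2, near 0, turned to 0.070 without scaling, 0.21 with the GC trend removed (also 0.21 with the block), 0.068 with base context removed and 0.15 by the t-test. Eif4e turned to 0.18 without scaling, 0.014 by quantile normalization and 0.39 by the t-test, and lay between -0.055 and 0.044 when single libraries were dropped. For these shifts, the cause was not tested. The reads per gene are unknown, so low values have no counting interval, and genes at 0 in any library were outside the test.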
